A study of Rattus norvegicus with 12 samples.

Results

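Genes that encode muscle splicing regulators, 9 in all, were followed in the left ventricle of rats with heart failure after myocardial infarction, and Rbfox1 was the one whose RNA passed the test for a change. The genes were Rbm20, Rbm24, Rbfox1, Rbfox2, Mbnl1, Mbnl2, Celf1, Celf2 and Srpk3. They were found by their gene symbol in the table of read counts, where 9 of 30560 listed genes matched, and all 9 passed the filter of at least 10 counts in total that 18182 genes passed. RNA was sequenced from 12 rats, with 1 library per rat and 4 rats in each of 3 groups. Sham rats had a thoracotomy without a suture passed around the left anterior descending coronary artery and received vehicle. MI rats had that artery permanently ligated and received vehicle, and MI + UA rats had the same ligation and received urolithin A (UA), a metabolite that gut bacteria make from dietary ellagitannins. All were male Wistar rats, 7 weeks old at surgery, and the vehicle, carboxymethylcellulose, or UA at 50 mg/ml was given daily by oral gavage for 8 weeks from 24 hours after surgery, as the sample labels state. The methods of the published study give the same dose and start, while its Results describe them differently. The RNA came from 20 µm sections of formalin-fixed, paraffin-embedded tissue of the middle region of the left ventricle. The library protocol in the labels and the published methods name depletion of ribosomal RNA, while another field of the labels calls the molecule polyA RNA, a conflict that was not settled here. Rat 66 is labelled MI + UA but stands among vehicle-treated MI rats in the study's list of echocardiography values. It was counted as MI + UA, and values with it in MI are given where they change a call.

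Alternative splicing gives adult heart muscle its own forms of titin, calcium channels, sarcomere and Z-disc proteins. RBM20 mostly keeps exons of muscle transcripts out and RBM24 mostly brings exons in, while RBFOX proteins bind introns beside an exon and include or skip it by the side they bind. MBNL and CELF proteins oppose each other at exons that switch between fetal and adult forms, a balance known from myotonic dystrophy, and SRPK3 is a kinase of striated muscle that phosphorylates SR proteins, the general activators of exon use. The counts measure the RNA of these genes, all transcripts of a gene together, and not the inclusion of any exon.

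Promoter sequences of 3 members are shown because these genes are enriched in striated muscle, Rbfox1 also in neurons, the E-box and MEF2 motifs are typical of muscle genes, and SRPK3 is known as a target of MEF2. Of the 9 members, 6 had an entry in the RefSeq promoter table (build GRCr8), and Rbm20, Celf2 and Rbfox2 had none. Each line gives the 250 bases upstream of 1 annotated start, read 5′ to 3′ on the gene's strand, and capitals mark matches to the E-box (CANNTG) and the MEF2 motif, searched on both strands.
Rbfox1, chr10:8999392-8999641, minus strand: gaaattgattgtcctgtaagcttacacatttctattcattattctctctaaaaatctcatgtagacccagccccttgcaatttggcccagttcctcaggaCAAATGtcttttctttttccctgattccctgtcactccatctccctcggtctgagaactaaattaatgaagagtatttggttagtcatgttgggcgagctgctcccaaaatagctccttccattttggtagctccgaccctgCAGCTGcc
Rbm24, chr17:18493629-18493878, minus strand: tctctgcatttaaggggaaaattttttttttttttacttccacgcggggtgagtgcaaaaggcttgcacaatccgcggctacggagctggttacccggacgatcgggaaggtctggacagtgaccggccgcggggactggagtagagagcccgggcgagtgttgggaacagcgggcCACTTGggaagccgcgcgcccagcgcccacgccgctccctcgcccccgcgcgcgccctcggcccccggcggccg
Srpk3, chrX:156661720-156661969, plus strand: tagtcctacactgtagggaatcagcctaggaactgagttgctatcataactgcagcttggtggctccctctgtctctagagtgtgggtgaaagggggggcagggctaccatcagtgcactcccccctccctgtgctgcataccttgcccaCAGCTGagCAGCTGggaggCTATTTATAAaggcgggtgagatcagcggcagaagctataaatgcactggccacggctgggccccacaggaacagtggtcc

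In the Srpk3 window the E-box match CAGCTG occurred at bases -100 to -95 and again at -92 to -87, counted from the start. A MEF2 match, CTATTTATAA, followed at -81 to -72 and overlapped TATAAA matches at -76 to -71 and, on the other strand, at -78 to -73. Another TATAAA lay at -45 to -40. Rbm24 had 1 E-box match, CACTTG at -74 to -69, and Rbfox1 had 2, CAAATG at -150 to -145 and CAGCTG at -8 to -3. No MEF2 match lay in the Rbfox1 or Rbm24 window. Among all 33469 windows of the same length, 65.5% held an E-box match, 12.9% TATAAA and 2.96% a MEF2 match, so the E-box is common and the MEF2 match is rare. The motifs of GATA factors (AGATAA, in 10.3% of windows), MCAT (CATTCC, 12.1%), CCAAT (34.0%) and the CArG box (1.5%) had no match in these 3 windows. By composition the Rbm24 window was rich in G and C, 65.6% of its bases, against 44.0% for Rbfox1, 56.8% for Srpk3 and a median of 51.2% over all windows. Coordinates belong to GRCr8 and not to mRatBN7.2, the build of the count table, and a match describes letters only.

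Reads on genes ranged from 6228706 to 8958828 in Sham, from 6829591 to 12743184 in MI and from 6819444 to 19031695 in MI + UA. Transcripts of 13 mitochondrially encoded genes made up 50.2% to 58.6% of them. Srpk3 had 79 to 285 counts per library and each of the other 8 members 367 to 7238. The share of counted reads on genes was 50.4% to 53.4% in Sham and 47.6% to 49.8% in MI, without overlap, and 46.2% to 50.8% in MI + UA, where rat 58 stood below the others. Cardiomyocyte markers such as Myh6 and Tnni3 were abundant in every library, and 11 of 12 listed markers were tested. The summed level of those markers was 16358 to 19399 CPM (reads scaled to a common library size with TMM factors) in Sham, 11465 to 11930 in MI and 11997 to 14372 in MI + UA. Fibroblast markers summed to 1202 to 1542 CPM in Sham, 2331 to 3771 in MI and 2341 to 3808 in MI + UA. Skeletal muscle markers, of which Acta1 is also expressed in heart, summed to 101 to 274 CPM in Sham, 267 to 367 CPM in MI and 204 to 605 CPM in MI + UA, and Myh4, Myog and Myod1 had 6, 4 and 1 counts in total. In bulk tissue, fewer cells of a type and less RNA per cell cannot be told apart.

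With infarction, Rbfox1 RNA fell by 37.8%, Rbm20, Rbm24 and Rbfox2 were lower by smaller amounts that did not pass the test, and Mbnl1, Mbnl2, Celf1 and Celf2 stayed within 0.04 of no difference on the log2 scale. In MI versus Sham, 1 of the 9 members passed an adjusted p of 0.05 in edgeR's quasi-likelihood test, where 11.4% of all tested genes did and 5.53% were lower. At an unadjusted p under 0.05 there were 4 members, Rbfox1, Rbm20, Rbm24 and Rbfox2, all lower in MI, where 11.3% of all genes were lower at that p. The median log2 fold change was -0.15 over the members and 0.03 over all genes. The MI rats were all below the Sham rats for 3 members, Rbfox1, Rbm20 and Rbfox2, against 7.56% of all genes, and no member was higher without overlap, as 8.12% of all genes were.

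**Figure D1:**
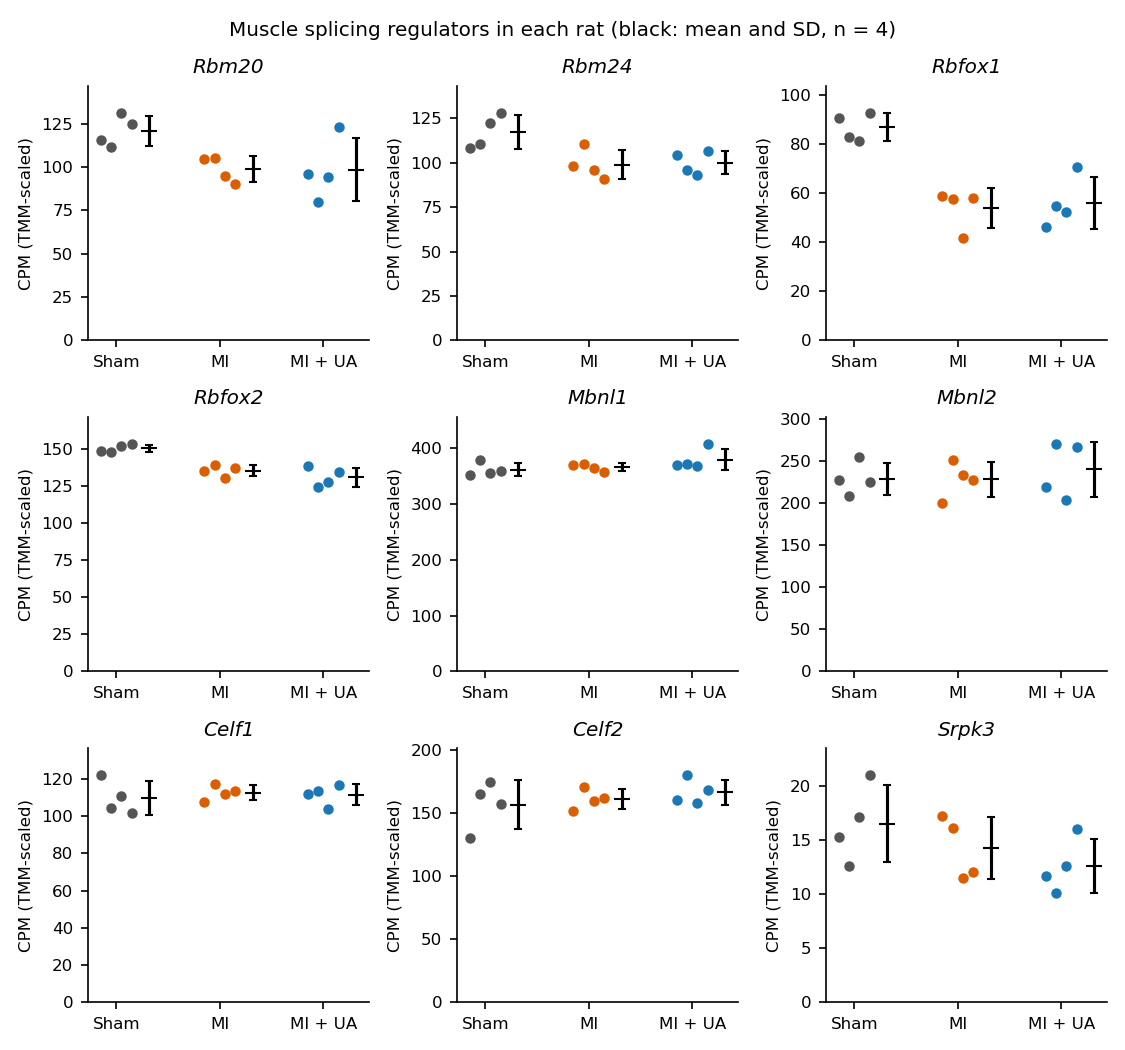
Each panel plots 1 member in TMM-scaled CPM on an axis from 0, with a point for each rat of the Sham, MI and MI + UA groups and the mean ± SD (n = 4) in black beside them. Rbfox1 lies between 81.3 and 92.5 CPM in Sham and at or below 70.8 CPM in every infarcted rat, while the points for Mbnl1, Mbnl2, Celf1 and Celf2 overlap between all groups.

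Rbfox1 (ENSRNOG00000002827) encodes an RNA-binding protein of heart, skeletal muscle and neurons. It measured 90.7, 82.8, 81.3 and 92.5 CPM in Sham rats 12, 17, 32 and 38. In MI rats 36, 57, 61 and 89 it measured 58.9, 57.5, 41.8 and 58.01 CPM. The groups did not overlap, and rat 61 stood well below the other 3 MI rats, which lay close together. The mean went from 86.8 ± 5.59 CPM (SD, n = 4) to 54.1 ± 8.17 CPM (SD, n = 4). The log2 fold change was -0.68 (SE, the standard error, 0.12; edgeR adjusted p = 0.000849), a ratio of 0.622 with a 95% interval from 0.521 to 0.743. Without rat 61 it was -0.58, the smallest fall when any 1 rat was left out, and Rbfox1 passed in 8 of 8 such fits, with the largest adjusted p at 0.00523 in edgeR. RefSeq places 2 long noncoding RNAs and a ribosomal protein pseudogene within the Rbfox1 locus, and other genes also overlap Rbm20 (2), Mbnl1 (1), Mbnl2 (2) and Celf2 (3). Since the strand setting of the counting is not stated, reads could be shared with them.

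Cardiomyocyte markers moved in the same direction, where 8 of 11 tested passed as lower, 0 passed as higher and the median log2 fold change was -0.49. Relative to the mean log2 CPM of these markers in the same rat, a description chosen after the values were seen, Rbfox1 was -2.99 ± 0.16 in Sham and -3.20 ± 0.19 in MI (SD, n = 4), a difference of -0.21 with overlapping groups. The subtraction lifts every gene in MI alike, since the mean of the markers went from 9.43 log2 CPM in Sham to 8.95 log2 CPM in MI, so no sign of the other members is read from it. Fibroblast markers rose in 8 of 10, macrophage and leukocyte markers in 6 of 10, and smooth muscle and pericyte markers in 4 of 8. Summed macrophage and leukocyte markers were 335 to 386 CPM in Sham and 475 to 623 CPM in MI. Neuron and Schwann cell markers, relevant because neurons also express Rbfox1, summed to 16.2 to 18.6 CPM in Sham, 20.1 to 28.9 CPM in MI and 22.1 to 63.6 CPM in MI + UA, with the neuronal Snap25 at 1 count in total. In MI versus Sham all 6 tested had positive log2 fold changes with a median of 0.98, and 1 passed as higher in edgeR and 2 in DESeq2. In skeletal muscle markers 1 of 4 tested, Tnnt3, passed as higher, all 4 had positive log2 fold changes and their median was 0.86, in endothelial markers 1 of 8 was lower, and in adipocyte markers 0 of 2 passed in edgeR, with 1 at an unadjusted p under 0.05 and no adjusted p from DESeq2. The part of these shifts, and of the lower share of reads on genes, in the Rbfox1 result was not tested.

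Rbm20 (ENSRNOG00000014705) encodes the repressor of titin exons whose mutation causes dilated cardiomyopathy. It measured 116, 112, 131 and 125 CPM in Sham rats 12, 17, 32 and 38, and 105, 105, 95.1 and 90.3 CPM in MI rats 36, 57, 61 and 89. The 4 MI rats were below the 4 Sham rats. The log2 fold change was -0.29 (SE 0.11, 95% interval -0.51 to -0.07), with an edgeR adjusted p of 0.0891. With only the 2 groups in the edgeR fit the adjusted p was 0.0182, and over 7 alternatives it ran from 0.0182 to 0.150.

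Rbm24 (ENSRNOG00000046547) encodes an activator of muscle exons that is needed for heart development. Sham rats 12, 17, 32 and 38 had 109, 111, 122 and 128 CPM, and MI rats 36, 57, 61 and 89 had 98.5, 111, 96.2 and 90.8 CPM. Rat 57 of MI reached the range of Sham and the other 3 MI rats lay below it. The log2 fold change was -0.25 (SE 0.09, 95% interval -0.42 to -0.07), with an edgeR adjusted p of 0.0683. The call depended on the setting, since Rbm24 passed with DESeq2 (adjusted p = 0.0294), with only the 2 groups in the edgeR fit (adjusted p = 0.0478) and in edgeR without MI rat 57 (log2 fold change -0.30, adjusted p = 0.0280). Over 7 alternatives the adjusted p ran from 0.0294 to 0.0850.

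Rbfox2 (ENSRNOG00000004688), the more broadly expressed relative of Rbfox1, varied little between rats. It measured 148, 148, 152 and 153 CPM in Sham rats 12, 17, 32 and 38, and 135, 139, 130.2 and 137 CPM in MI rats 36, 57, 61 and 89. The groups did not overlap and differed by a log2 fold change of -0.15 (SE 0.07, edgeR adjusted p = 0.193). Its pooled standard deviation of log2 CPM within groups was 0.049, the lowest of the members, with Mbnl1 next at 0.051, while Rbfox1 had 0.21 and Srpk3 0.29.

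Srpk3 (ENSRNOG00000054548) had the fewest counts and the widest spread. Sham rats 12, 17, 32 and 38 had 15.3, 12.6, 17.2 and 21.0 CPM, and MI rats 36, 57, 61 and 89 had 17.3, 16.2, 11.5 and 12.1 CPM. The groups overlapped. The log2 fold change of -0.22 had a standard error of 0.17 and a 95% interval from -0.58 to 0.14 (edgeR adjusted p = 0.487), so a fall as large as that of Rbm20 or a small rise could not be told from no difference. Leaving out 1 rat moved it from -0.34 without MI rat 36 to -0.07 without Sham rat 38.

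The MBNL and CELF genes had the closest group means. Mbnl1 (ENSRNOG00000014076), the main MBNL protein of muscle, had 362 ± 12.1 CPM in Sham and 366 ± 6.67 CPM in MI (SD, n = 4), a log2 fold change of 0.02 with a 95% interval from -0.13 to 0.16. Mbnl2 (ENSRNOG00000010737), its relative with a larger role in brain, had 229 ± 19.0 CPM and 229 ± 21.1 CPM (SD, n = 4), a log2 fold change of -0.0048 with an interval from -0.21 to 0.20. For Celf1 (ENSRNOG00000010379), which promotes fetal exon choices and the decay of some mRNAs, the means were 109.6 ± 9.06 CPM and 113 ± 3.88 CPM (SD, n = 4), a log2 fold change of 0.04 with an interval from -0.13 to 0.20. Celf2 (ENSRNOG00000023661), the other CELF protein abundant in heart, had 157 ± 19.2 CPM and 161 ± 8.05 CPM (SD, n = 4), a log2 fold change of 0.04 with an interval from -0.15 to 0.22. In terms of the ratio of MI to Sham, the intervals of these 4 genes reached down to 0.864 for Mbnl2 and up to 1.17 for Celf2, and the smallest edgeR adjusted p among them was 0.838. Sham rat 12 had the lowest Celf2 (130 CPM against 157 to 174 in the other 3 Sham rats) together with the highest Celf1 (122 CPM against 101 to 111).

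**Figure D2:**
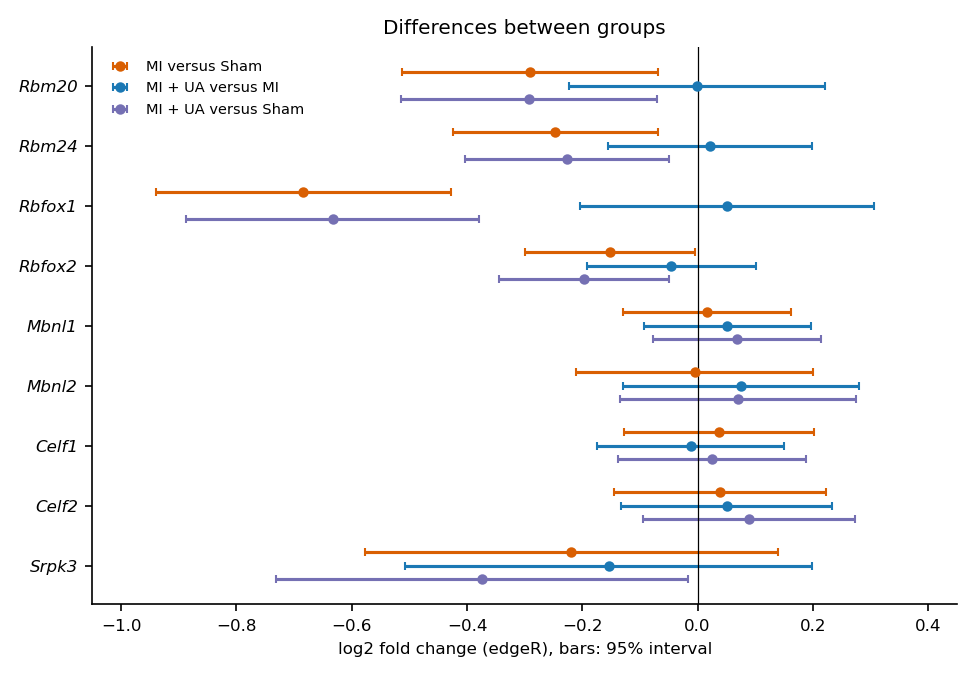
Points give the edgeR log2 fold change of each member (x axis) in MI versus Sham, MI + UA versus MI and MI + UA versus Sham, and bars give the 95% interval. Rbfox1 is at -0.68 and -0.63 against Sham and at 0.05 between the infarcted groups, and the intervals of all 9 members cross 0 in MI + UA versus MI.

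UA treatment was compared with vehicle in infarcted rats, and no member passed the test for a difference. In MI + UA versus MI, 0 of 9 members passed in edgeR's test, 0 had an unadjusted p under 0.05, and the groups overlapped for all 9. Among all genes 0 passed (0.0%), 689 (3.79%) had an unadjusted p under 0.05 in edgeR, and 2.34% did not overlap. DESeq2 also gave 0 adjusted calls, with 481 genes and 0 members at an unadjusted p under 0.05. The median log2 fold change was 0.02 over the members and 0.0047 over all genes.

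Rbfox1 measured 46.0, 54.7, 52.1 and 70.8 CPM in MI + UA rats 29, 58, 64 and 66, with a mean of 55.9 ± 10.6 CPM (SD, n = 4). The log2 fold change against MI was 0.05 (SE 0.12, 95% interval -0.20 to 0.31), so the ratio of MI + UA to MI lay between 0.868 and 1.24. Rat 66 had the highest Rbfox1, Rbm20, Rbm24, Mbnl1, Celf1 and Srpk3 of its group. When rat 66 was moved to MI, the value for Rbfox1 turned to -0.18.

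Rbm20 measured 96.0, 79.6, 94.3 and 123 CPM in MI + UA rats 29, 58, 64 and 66, the widest spread of this gene in any group, and Rbm24 measured 105, 96.2, 93.4 and 106 CPM. The log2 fold changes against MI were -0.0014 for Rbm20 (95% interval -0.22 to 0.22) and 0.02 for Rbm24 (95% interval -0.16 to 0.20). The ratios of MI + UA to MI were 0.999 and 1.01. The value for Rbm20 rested on rat 66, and it was -0.13 without that rat and -0.20 when the rat was moved to MI.

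Srpk3 was 11.7, 10.1, 12.6 and 16.0 CPM in these rats, a log2 fold change of -0.15 against MI with a 95% interval from -0.51 to 0.20, the widest of the members. It was -0.35 when rat 66 was moved to MI, where Srpk3 was then the 1 member at an unadjusted edgeR p under 0.05. In that setting 0 members and 0 of all genes passed after adjustment, so no difference in Srpk3 is read from it. The share of all genes at that unadjusted p was not set beside it. Leaving out 1 rat, the log2 fold change of Srpk3 ran from -0.31 without rat 66 to -0.03 without MI rat 36. Rbfox2 was 138, 124, 127 and 134 CPM, a log2 fold change of -0.05 (95% interval -0.19 to 0.10). For Mbnl1, Mbnl2, Celf1 and Celf2 the log2 fold changes were 0.05, 0.07, -0.01 and 0.05, each with a standard error of 0.07 to 0.10. The bounds of the 95% intervals over the 9 members lay between -0.51 and 0.31 on the log2 scale, and without Srpk3 between -0.22 and 0.31.

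The UA-treated rats were also set against Sham, which shares its rats with the first comparison. Rbfox1 was again the member that passed, 1 of 9 against 9.44% of all genes (4.27% lower), with a log2 fold change of -0.63 (SE 0.12, edgeR adjusted p = 0.00207), and no MI + UA rat reached the Sham range. Rat 66 came closest, at 70.8 CPM against the lowest Sham value of 81.3. An unadjusted p under 0.05 was reached by 5 members, Rbfox1, Rbm20, Rbm24, Rbfox2 and Srpk3, all lower, where 10.2% of all genes were lower at that p. Rbfox1, Rbm24 and Rbfox2 did not overlap with Sham, against 6.46% of all genes that were lower without overlap. Rbfox2 had a log2 fold change of -0.20 (SE 0.07, edgeR adjusted p = 0.0887) and passed with DESeq2 (adjusted p = 0.0141) and with edgeR's own expression filter (adjusted p = 0.0496). Rbm20 had -0.29 (edgeR adjusted p = 0.0955), and it passed at -0.42 both without rat 66 (edgeR adjusted p = 0.00491) and when rat 66 was moved to MI (edgeR adjusted p = 0.0126).

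Ratios within a rat do not depend on how libraries are scaled, so 4 pairs were compared, the paralogue pairs and Mbnl1 against Celf1, with exact permutation tests over rats. The log2 ratio of Rbfox1 to Rbfox2 was -0.71, -0.83, -0.90 and -0.72 in Sham rats 12, 17, 32 and 38, and -1.19, -1.27, -1.64 and -1.24 in MI rats 36, 57, 61 and 89. Every MI rat was below every Sham rat. The means were -0.79 ± 0.09 in Sham and -1.33 ± 0.20 in MI (SD, n = 4), a difference of -0.54 (two-sided exact permutation p = 0.0286, the smallest that 4 rats against 4 allow, and 0.114 after adjustment over the 4 pairs). In MI + UA the ratio was -1.24 ± 0.27 (SD, n = 4), 0.09 above MI with overlap (two-sided exact permutation p = 0.571).

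The other 3 pairs differed little between MI and Sham. The differences in log2 ratio were 0.02 for Mbnl1 to Mbnl2, -0.0046 for Celf1 to Celf2 and -0.02 for Mbnl1 to Celf1 (two-sided exact permutation p of 0.771 or above in each). Celf1 to Celf2 was tight in MI, from -0.55 to -0.49, and in 3 Sham rats, from -0.67 to -0.63, while Sham rat 12 was at -0.09. Without rat 12, which was singled out by these same values, the MI rats were all above the Sham rats, by 0.13. The exact permutation p was 0.0571, the smallest for 3 against 4, and 0.114 after adjustment over the 4 pairs. Because the rat was left out for its value, no difference is read from this. Between MI + UA and MI, Celf1 to Celf2 differed by -0.06 and Mbnl1 to Celf1 by 0.06 (two-sided exact permutation p = 0.143 for both), and Mbnl1 to Mbnl2 by -0.02.

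**Figure D3:**
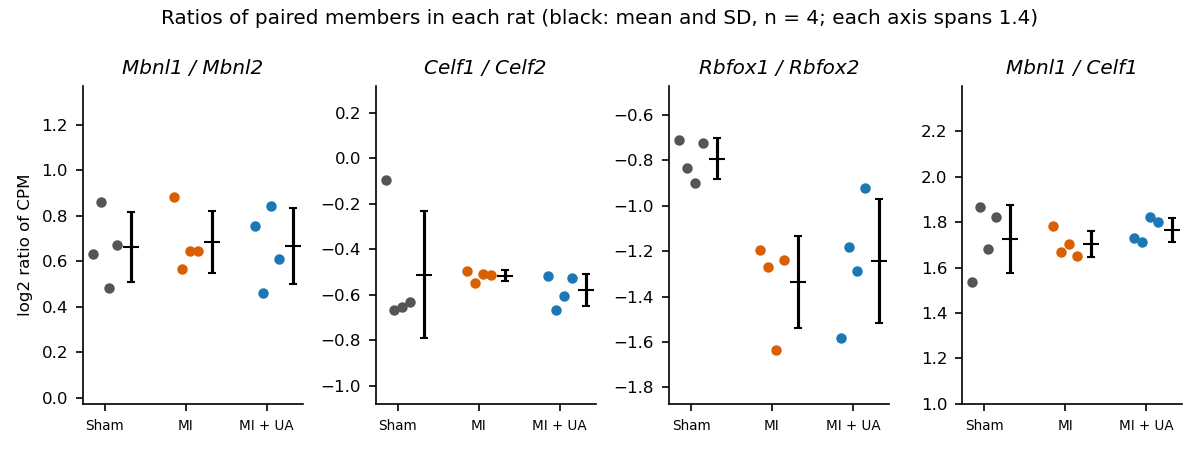
Each panel plots the log2 ratio of CPM of 2 members in each rat, with mean ± SD (n = 4) in black, on axes of equal span. For Rbfox1 to Rbfox2 the 4 MI rats lie below the 4 Sham rats, the other pairs overlap, and Sham rat 12 stands apart in Celf1 to Celf2.

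Paralogues of the members were examined next. Of 9 listed paralogues 7 were tested, since Mbnl3 was not matched by symbol and Celf6 had no counts. Rbm38 (ENSRNOG00000006420), the close relative of Rbm24 and a target of p53, fell from 60.7 ± 4.16 CPM in Sham to 44.7 ± 6.05 CPM in MI (SD, n = 4). Its ranges, 56.3 to 66.3 CPM and 39.4 to 50.4 CPM, did not overlap, and the log2 fold change was -0.45 (SE 0.11, edgeR adjusted p = 0.0129). In MI + UA it was 46.7 ± 7.33 CPM (SD, n = 4). The general SR protein kinases Srpk1 and Srpk2 had log2 fold changes of 0.15 and 0.08 (edgeR adjusted p = 0.562 and 0.676). The CELF relatives typical of the nervous system, Celf3, Celf4 and Celf5, and the neuronal Rbfox3 had group means below 3 CPM and did not pass. Rbfox3, with 1 to 12 counts per library, was lower in MI than in Sham without overlap (log2 fold change -1.71, SE 0.62, edgeR adjusted p = 0.0847).

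In MI versus Sham, 0 of 12 SR and Tra2 proteins, 0 of 17 hnRNP proteins and 0 of 6 other kinases of SR proteins passed in edgeR or DESeq2. Among all tested genes 11.4% passed in edgeR, a share at which lists of this size hold few calls. At an unadjusted edgeR p under 0.05 there were 0, 1 and 0 of these, and the median log2 fold changes were 0.06 in each list. Among 24 other regulators tested, 6 had an unadjusted p under 0.05 in edgeR and 5 in DESeq2, where 3956 of all 18182 genes did. The log2 fold changes of the 24 ran from -1.01 to 0.89, and 1 passed, Khdrbs3 (ENSRNOG00000009539), an RNA-binding protein of the STAR family also called SLM2. It fell from 9.03 ± 0.55 CPM to 4.59 ± 1.02 CPM (SD, n = 4), a log2 fold change of -1.01 (SE 0.18, edgeR adjusted p = 0.000964), with ranges of 8.25 to 9.53 CPM in Sham and 3.80 to 5.96 CPM in MI. In MI + UA it was 4.96 ± 0.94 CPM (SD, n = 4). In MI + UA versus MI, 0 genes passed in each of these lists and among the paralogues in edgeR and in DESeq2, and 0 had an unadjusted p under 0.05 by either tool. One regulator, Raver2, was higher in MI + UA than in Sham (log2 fold change 1.30, edgeR adjusted p = 0.0413). Its log2 fold change was 0.89 in MI versus Sham and 0.42 in MI + UA versus MI, and it passed in neither.

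**Figure D4:**
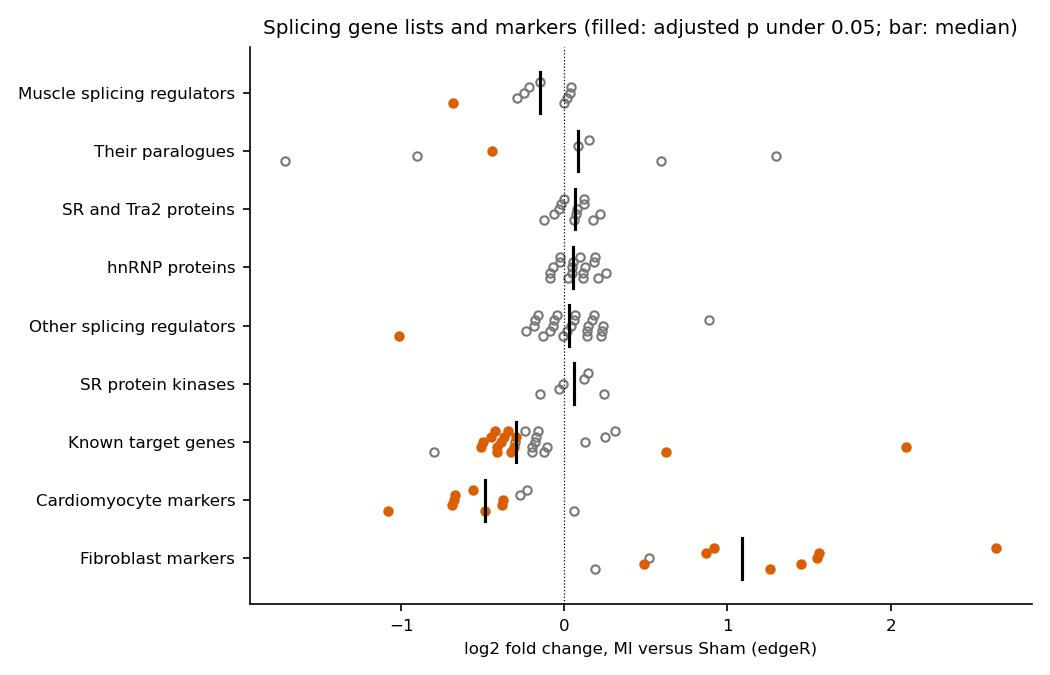
Every point is a tested gene placed by its edgeR log2 fold change in MI versus Sham (x axis), filled in orange where the adjusted p was under 0.05, with a bar at the median of each list. The SR, hnRNP and kinase lists hold no filled point, Rbfox1 is the filled member at -0.68, and the target genes have a median of -0.30 and the cardiomyocyte markers one of -0.49.

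Genes known as splicing targets of the members in striated muscle were compared in total RNA. Of 27 tested, 12 fell, 2 rose and 13 did not pass in edgeR's test, where 5.53% of all genes passed as lower. The log2 fold change was negative for 22 of the 27, with a median of -0.30, and DESeq2 called 12 lower and 1 higher. Among those that passed, the largest falls were those of Trdn (triadin, of the calcium release complex), at -0.51, Tpm1 (a tropomyosin), at -0.50, and Ttn (titin, the spring of the sarcomere and main target of RBM20), at -0.45. Ttn went from 35322 ± 1560 CPM to 25890 ± 2483 CPM (SD, n = 4; edgeR adjusted p = 0.00531). The rises were those of Fn1 (fibronectin, a matrix protein of fibroblasts), at 2.09, and Enah (an actin regulator), at 0.62 (edgeR adjusted p = 0.000405 and 0.0416). The cardiomyocyte markers had a median of -0.49 in the same comparison, and their part in these levels was not tested. In MI + UA versus MI 0 of 27 passed in edgeR or DESeq2, and 0 had an unadjusted p under 0.05 by either tool.

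The genes with the profile most like that of Rbfox1 over the 12 rats were sought among 5099 named genes of at least 4 in average log2 CPM, by the mean absolute difference of log2 CPM after centring each gene on its own mean. The closest was Hrc, a calcium-binding protein of the sarcoplasmic reticulum and itself one of the cardiomyocyte markers used above, with a mean difference of 0.069. It was followed by Pnpla2, the lipase that starts triglyceride breakdown, at 0.084, and Nnt, a mitochondrial transhydrogenase, at 0.093. In MI versus Sham, Hrc, Pnpla2 and Nnt had log2 fold changes of -0.69, -0.50 and -0.62. MI rat 61 was low in Rbfox1 and Hrc alike, and MI + UA rat 66 was the highest infarcted rat for all 4 genes. The likeness was sought over the same rats as the difference between groups and is a description.

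**Figure D5:**
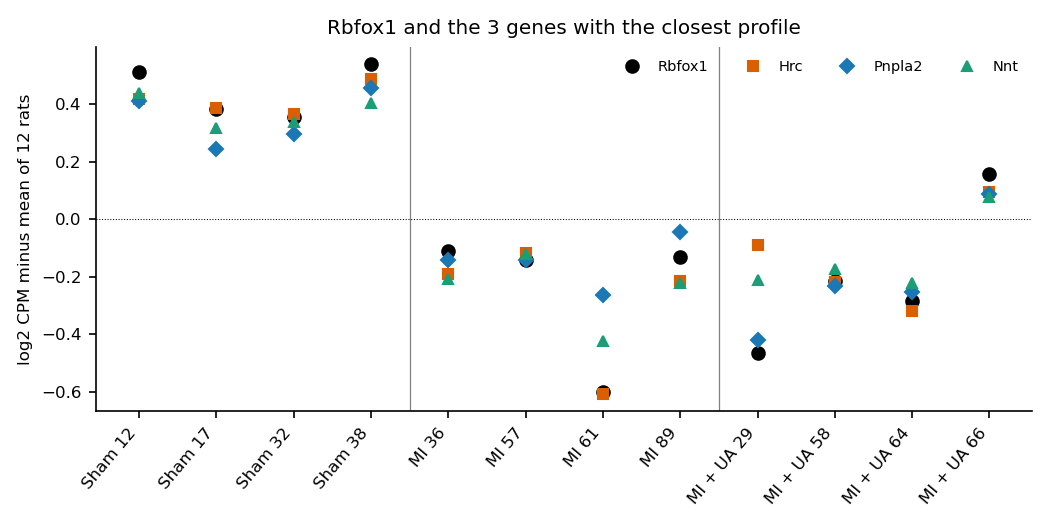
Log2 CPM of Rbfox1, Hrc, Pnpla2 and Nnt in each rat, each gene minus its own mean over the 12 rats (y axis), with vertical lines between the Sham, MI and MI + UA rats. All 4 genes lie above 0 in the Sham rats, below 0 in the MI rats and in MI + UA rats 29, 58 and 64, and above 0 in MI + UA rat 66.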

How the data were processed

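RNA of 12 left ventricles was sequenced as read pairs. The authors mapped reads with STAR 2.6.1c to mRatBN7.2 and counted them per gene with HTSeq, per the submitters' processing notes, and deposited raw counts. The library kit was strand-specific, and the strand setting of the counting is not given in the sources used here. A further MI + UA library, left out by the authors as an outlier, was not used here. The 5 summary lines of the count table were left out, of which reads on no gene were 42.5% to 50.2% of counted reads.

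Genes reaching 10 counts over all libraries were tested with edgeR 4.0.16 (R 4.3.3): TMM factors, quasi-likelihood fit of the 3 groups together, Benjamini-Hochberg adjustment over all 18182 genes, threshold 0.05. Intervals are 95%. Log2 CPM used a prior count of 1. Scripts were tested on simulated data. DESeq2 1.42.0, other filters and scalings, the 2 groups alone, rat 66 in MI and leaving out each rat were alternatives. Libraries of a group differed by more than sampling noise (chi-square per degree of freedom of 1.95 or more).

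Members and lists were chosen with earlier results of these data known. Named were all members and paralogues, the 3 largest rises and falls past the threshold in each other splicing list, and the 3 nearest profiles to a member that passed; Raver2 was named after its values were seen.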

Additional observations from a re-analysis of the deposited data

Results flagged for a closer look

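For each member, each pair ratio, each marker list and each measure of library quality, the highest and lowest rat of a group of 4 were compared with the other 3, as the gap to the nearest rat over the range of the group. The gap exceeded Dixon's 95% critical value in 6 of 72 groups, where chance gives 3.6. The groups are not independent, since some measures share genes or reads.

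Among the members, MI rat 61 was the lowest in Rbfox1, with a log2 CPM of 5.39 against 5.85 to 5.88 in the other 3 MI rats and a gap ratio of 0.934. MI + UA rat 66 was the highest in Mbnl1, at 8.67 against 8.52 to 8.54, with a gap ratio of 0.882. Sham rat 12 was the highest in the log2 ratio of Celf1 to Celf2, at -0.09 against -0.67 to -0.63, with a gap ratio of 0.938. Its share of counted reads on genes, 50.4%, was the lowest in Sham, and its sample title carries a suffix that no other title has. The causes were not tested.

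MI + UA rat 58 lay apart in the other 3 groups. Its neuron and Schwann cell markers had a mean log2 CPM of 2.09 against 1.09 to 1.24 in the other MI + UA rats, with a gap ratio of 0.850. Of its counted reads, 46.2% fell on genes against 50.3% to 50.8% (gap ratio 0.882), and 50.2% fell on no gene against 45.04% to 45.6% (gap ratio 0.892). These shares are near complements of the same reads and are not separate observations. Rat 58 also had the lowest Rbm20, Rbfox2 and Srpk3 and the highest Celf2 and Mbnl2 of its group.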

How the results depend on the processing

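Rbfox1 passed the threshold in MI versus Sham and in MI + UA versus Sham under all 7 alternatives and in all 8 edgeR fits that each left out 1 rat. Other calls depended on the setting, and the causes were not tested. In MI versus Sham, DESeq2 called 2 members (Rbm24 added) and the fit of only the 2 groups 3 (Rbm20 and Rbm24 added), and leaving out 1 rat gave 1 to 2, the latter without MI rat 57. Over all genes the count went from 2064 to 2178 with DESeq2, to 2182 with only the 2 groups, and to 1468 to 1941 without 1 rat. In MI + UA versus Sham, 2 members were called with DESeq2, with filterByExpr, with rat 66 counted in MI and without rat 66, and 1 to 2 over the fits that left out a rat. Over all genes the count there went from 1716 to 1921, 1846, 1830 and 1895 in that order, and to 1155 to 1895 without 1 rat. Over all genes in MI + UA versus MI, 3 were called with no filter, and 0 to 1 when a rat was left out.

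Sign changes were all among values that did not pass. With rat 66 counted in MI, Mbnl2 in MI versus Sham became 0.044, and in MI + UA versus MI Rbm24 became -0.033, Mbnl1 -0.017, Mbnl2 -0.028, Rbfox1 -0.18, the log2 ratio of Mbnl1 to Mbnl2 0.017 and that of Rbfox1 to Rbfox2 -0.098. Rbm20 in MI + UA versus MI was 0.00064 with no filter. Leaving out 1 rat at a time, MI versus Sham ran from -0.054 to 0.053 for Mbnl2, -0.042 to 0.093 for Celf2, -0.044 to 0.088 for Mbnl1 to Mbnl2, -0.057 to 0.13 for Celf1 to Celf2 and -0.088 to 0.022 for Mbnl1 to Celf1. MI + UA versus MI ran from -0.13 to 0.085 for Rbm20, -0.019 to 0.076 for Rbm24, -0.036 to 0.020 for Celf1, -0.092 to 0.14 for Rbfox1, -0.077 to 0.052 for Mbnl1 to Mbnl2 and -0.016 to 0.21 for Rbfox1 to Rbfox2. Celf1 in MI + UA versus Sham ran from -0.011 to 0.080. No paired analysis was possible because each rat belongs to 1 group and its number recurs in no other group. The counts show gene RNA and no exon use, and Srpk3, with the fewest counts, has the widest intervals.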
